A study of Mus musculus with 6 samples.

Results

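The genes described here are 10 transcription factors that set the identity of dendritic cells (Irf8, Batf3, Id2, Nfil3, Zbtb46, Spi1, Bcl6, Irf4, Zeb2 and Tcf4), taken by name from a table of 32285 genes. They were measured in type 1 conventional dendritic cells (cDC1s), a subset known for showing captured antigen to CD8 T cells. Flow cytometry was used to collect them from lymph nodes labelled mLN, in C57BL/6 mice dosed through the nose with 50 µg of house dust mite (HDM) 24 h earlier. RNA was sequenced from 3 libraries of mice labelled Vps33BdeltaDC (KO), and from 3 libraries of wild-type mice (WT), which had received HDM too. Vps33b encodes a protein of vesicle trafficking. The labels name no promoter behind the deletion, no exons removed and no age of the mice. Whether each library is a separate animal is also not labelled, so p-values measure the spread between these libraries, which may be technical.

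Dendritic cells arise from bone marrow precursors that commit to the cDC1, cDC2 or plasmacytoid (pDC) fate through factors that act against each other. In mouse, IRF8 is needed for cDC1s to form and to keep their identity, and BATF3, an AP-1 family protein, sustains Irf8 transcription. ID2 is a helix-loop-helix protein that cannot bind DNA and holds back E proteins such as TCF4 (also called E2-2), on which pDC identity depends. NFIL3 represses Zeb2, and ZEB2 represses Id2, so that these factors form a switch between cDC1s and the other fates. IRF4 takes the place of IRF8 in cDC2s, and it is also known to be induced when dendritic cells mature. PU.1, encoded by Spi1, is an ETS factor that binds DNA together with IRF8 or IRF4. ZBTB46 is a zinc-finger protein typical of conventional dendritic cells, and BCL6 is a BTB zinc-finger repressor best known from germinal centre B cells.

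The promoters of Bcl6 and Irf4 are shown because these 2 members differed most between the groups, and that of Irf8 because its protein and IRF4 are members of 1 family with related DNA-binding domains. Each is the 250 bases before a start site in RefSeq (GRCm38.p6), 5′ to 3′ on the gene's own strand. Capitals mark matches on either strand to letters bound by these families: the ETS and IRF composite element, the interferon-response core, TGANTCA (AP-1) and CACCTG or its complement CAGGTG (an E-box bound by E proteins and ZEB2).
Irf8, first start site: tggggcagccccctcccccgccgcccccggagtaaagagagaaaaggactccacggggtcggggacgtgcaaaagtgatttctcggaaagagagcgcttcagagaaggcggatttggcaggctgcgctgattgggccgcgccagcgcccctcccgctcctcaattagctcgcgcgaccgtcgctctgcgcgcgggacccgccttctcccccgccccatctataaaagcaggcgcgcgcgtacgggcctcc
Irf4: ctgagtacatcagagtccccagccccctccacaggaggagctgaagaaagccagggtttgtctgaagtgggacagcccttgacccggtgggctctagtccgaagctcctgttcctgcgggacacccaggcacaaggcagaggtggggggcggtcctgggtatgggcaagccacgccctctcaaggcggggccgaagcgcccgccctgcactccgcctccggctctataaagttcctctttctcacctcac
Bcl6, first start site: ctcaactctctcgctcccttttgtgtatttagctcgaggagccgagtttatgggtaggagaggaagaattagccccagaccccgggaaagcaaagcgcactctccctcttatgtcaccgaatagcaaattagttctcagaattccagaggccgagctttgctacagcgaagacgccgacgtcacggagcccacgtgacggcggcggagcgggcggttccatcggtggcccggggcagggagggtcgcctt
Bcl6, second start site: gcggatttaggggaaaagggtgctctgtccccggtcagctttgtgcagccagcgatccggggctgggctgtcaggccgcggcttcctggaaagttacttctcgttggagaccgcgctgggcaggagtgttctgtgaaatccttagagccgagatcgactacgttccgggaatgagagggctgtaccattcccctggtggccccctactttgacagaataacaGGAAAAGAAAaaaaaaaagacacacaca
These windows are chr8:120736108-120736357 (plus strand), chr13:30748983-30749232 (plus), chr16:23988853-23989102 (minus) and chr16:23981284-23981533 (minus). The second Bcl6 window held 1 match to the ETS and IRF composite, and the Irf4 and first Irf8 and Bcl6 windows held none of the 4 motifs. Of the 10 members, Spi1 and Tcf4 had no window searched, so the motif counts do not cover them. For the other 8 members 13 windows were searched in all, and 4 of these held a match. The other 3 were a second Irf8 window (1 CACCTG), the Zbtb46 window (1 TGANTCA and 1 CACCTG) and 1 of 4 Zeb2 windows (2 TGANTCA). Over 32851 windows of the same length in the genome, 2.3% held the composite, 2.98% the interferon-response core, 6.75% TGANTCA and 17.2% CACCTG. A match of letters is a description and not a binding site.

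All 10 genes were found in the table and all 10 passed the filter on low counts. In mm10, the cDC1 factors lie at chr8:120736358-120756694 (Irf8, plus strand), chr1:191097847-191108945 (Batf3, plus), chr12:25093799-25097140 (Id2, minus) and chr13:52967209-52981073 (Nfil3, minus). The factors shared by dendritic cells lie at chr2:181387762-181459426 (Zbtb46, minus), chr2:91082390-91115756 (Spi1, plus) and chr16:23965052-23988852 (Bcl6, minus). Factors of cDC2s or pDCs lie at chr13:30749226-30766976 (Irf4, plus), chr2:44983632-45117395 (Zeb2, minus) and chr18:69343356-69689079 (Tcf4, plus). On the opposite strand, Zeb2os covers 3.27% of the exon bases of Zeb2, and Gm37419 covers 0.313% of those of Bcl6. The labels state no strand setting for the counting, so reads from those stretches cannot be told apart. No exon overlap with another gene was annotated for the other 8.

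The libraries held 11755944 to 17434247 counts in KO and 14949229 to 18450678 in WT. Vps33b itself was at 6.77 ± 1.66 CPM in KO and 16.4 ± 2.69 CPM in WT (SD, n = 3 each), with the KO libraries at 5.0, 7.01 and 8.29 CPM and the WT libraries at 16.2, 19.1 and 13.8 CPM. CPM are counts scaled to a common library size after TMM, which also corrects for composition. All 17 listed genes of cDC1s were counted, at a summed 921 to 1160 CPM in KO and 1090 to 1520 CPM in WT. Of them 14 lay below 0 in log2 fold change (median -0.47), and 7 were lower at an unadjusted edgeR p below 0.05. Over all 12568 genes tested, 384 were lower at such a p, of 725 (5.77%) in both directions. This and the other lists were chosen with earlier results of these data known, so such counts are a description and not independent support. Much of the cDC1 sum was Cd24a (mean 428 CPM in KO, 365.1 CPM in WT), which was at 0.23. Markers of mature dendritic cells summed to 23600 to 29500 CPM in KO and 21700 to 23900 CPM in WT, with 10 of 10 tested and all 10 above 0 (median 0.28). Of the cDC2 markers 5 of 8 could be tested (159 to 230 CPM in KO, 195 to 254 CPM in WT), while the defining cDC2 genes Cd209a, Clec10a and Clec4a4 had too few counts. Most of that sum was Clec12a (mean 97.8 CPM in KO, 134 CPM in WT) and Tnip3 (78.0 CPM in KO, 53.8 CPM in WT), while Sirpa was at 21.8 CPM in KO and 23.0 CPM in WT. Of the pDC markers 7 of 10 could be tested (174 to 223 CPM in KO, 183 to 234 CPM in WT), 6 of them below 0 (median log2 fold change -0.71) and 3 lower at an unadjusted p below 0.05, while Bst2, which makes up much of the sum, was at 0.41. Markers of other cells were also counted, at 166 to 678 CPM in KO and 194 to 345 CPM in WT for monocytes and macrophages (10 of 10 tested). B cell markers (8 of 8 tested) summed to 117 to 401 CPM in KO and 166 to 295 CPM in WT, and T cell markers (8 of 8) to 65.8 to 79.3 CPM in KO and 49.1 to 74.1 CPM in WT. NK cell markers summed to 11.1 to 13.9 CPM in KO and 9.79 to 12.5 CPM in WT (6 of 6 tested), and neutrophil markers to 0.724 to 8.2 CPM in KO and 0.676 to 3.08 CPM in WT (2 of 6 tested, with Mpo and Elane at 0).

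The cDC1 factors stood far above the pDC factor Tcf4 and above Zeb2, in KO and in WT alike. Levels between genes are given in RPKM, here TMM-scaled CPM per kilobase of merged exons. Id2 was the highest of the 10, at 532.9 ± 66.1 RPKM in KO and 488.1 ± 108 RPKM in WT (SD, n = 3 each, for this and the following levels). Irf8 followed at 218.1 ± 37.0 RPKM in KO and 200.5 ± 11.1 RPKM in WT. Nfil3 was at 116.0 ± 21.7 RPKM in KO and 120.1 ± 26.6 RPKM in WT, and Batf3 at 97.8 ± 7.04 RPKM in KO and 92.0 ± 16.5 RPKM in WT. Among 11812 protein-coding genes tested, ordered by mean RPKM over the 6 libraries, Id2 ranked 69, Irf8 223 and Batf3 499. The median coding gene was at 5.18 RPKM.

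With merged exons the shared factors held the middle of the order. Spi1 was at 88.8 ± 4.12 RPKM in KO and 84.1 ± 10.9 RPKM in WT. Zbtb46 was at 31.6 ± 2.27 RPKM in KO and 33.3 ± 3.99 RPKM in WT, and Bcl6 at 21.3 ± 0.694 RPKM in KO and 28.6 ± 3.91 RPKM in WT. Irf4 was near them, at 27.8 ± 8.22 RPKM in KO and 19.9 ± 4.31 RPKM in WT, and it ranked 2043 among coding genes, above 82.7% of them.

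On the same scale Tcf4 and Zeb2 lay at the bottom, below the median coding gene. Tcf4 was at 0.874 ± 0.0609 RPKM in KO and 0.854 ± 0.176 RPKM in WT, above 17.1% of coding genes. Zeb2 was at 0.341 ± 0.0675 RPKM in KO and 0.288 ± 0.0425 RPKM in WT, above 6.82% of them. Each Zeb2 value rests on 72 to 124 reads a library, where counting alone gives a coefficient of variation of up to 11.8%, against 0.763% for Irf8 at its lowest count of 17181.

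Factors that define other lineages give a scale for these low levels. Over all 6 libraries, 9 of 10 such factors lay between 0 and 1.17 RPKM, with Tbx21 of T and NK cells the highest of the 9 and Cebpe of granulocytes at 0 counts in every library. The exception was Tcf7, a T cell factor, at 70.0 RPKM in KO and 82.3 RPKM in WT. With merged exons, 6 of these 10 factors were above Zeb2, 2 above Tcf4 and 1 above Irf4. By that length Zeb2 lay within the range of factors such as Pax5 of B cells and Bcl11b of T cells. Pax5 was at 0.205 RPKM in KO and 0.288 RPKM in WT, and Bcl11b at 0.441 RPKM in KO and 0.293 RPKM in WT. The merged exons of Zeb2 are longer, at 19942 bases against 8853 for Pax5 and 8111 for Bcl11b. In CPM, Zeb2 (6.797 in KO, 5.735 in WT) was above Pax5 (1.812 and 2.551) and Bcl11b (3.576 and 2.373). Other lengths were not applied to the factors of other lineages. In sorted cells a low level cannot show whether every cell holds a little RNA or a few cells hold more.

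**Figure D1:**
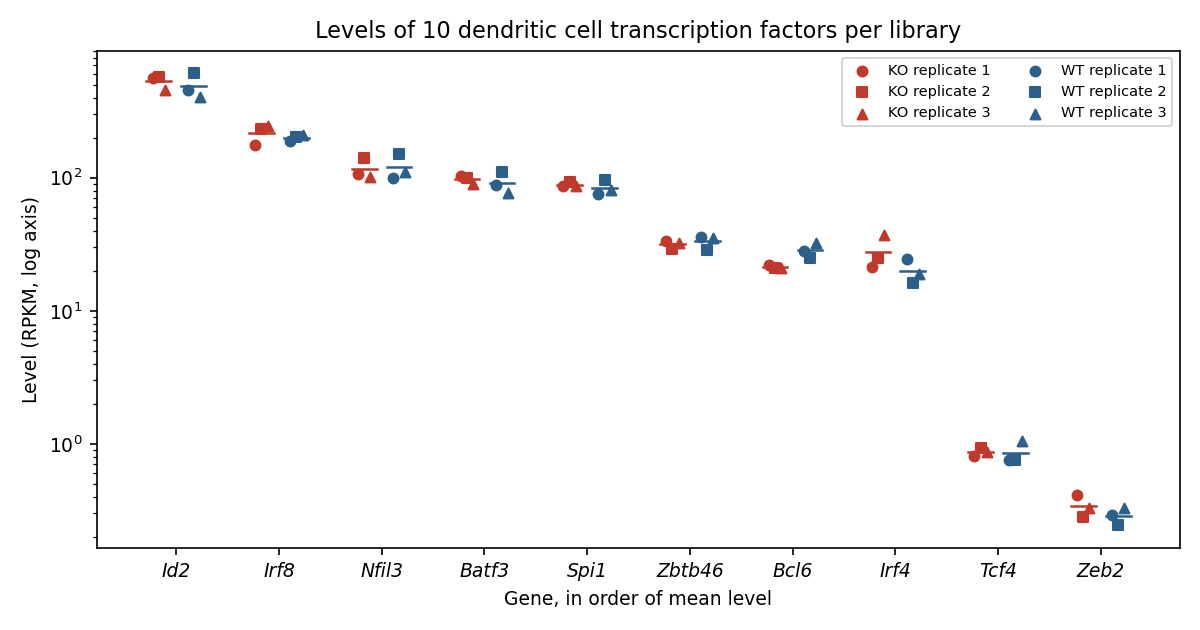
Level of each factor in each library, in RPKM on a log axis, with the genes in order of mean level over 6 libraries, KO in red and WT in blue, a symbol for each replicate and a line at each group's mean. Id2 and Irf8 lie above 100 RPKM in all 6 libraries, while Tcf4 and Zeb2 lie at or near 1 RPKM and below.

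Several neighbours in this order could not be told apart. In KO, the library values of Nfil3 and Batf3, Batf3 and Spi1, Zbtb46 and Irf4, and Irf4 and Bcl6 overlapped. In WT, those of Nfil3 and Batf3, Batf3 and Spi1, and Zbtb46 and Bcl6 overlapped, while Bcl6 lay above Irf4 in each comparison of their values. The remaining neighbours were apart in both groups with this length, with Id2 at 2.44 times Irf8 in KO and 2.43 times in WT. With merged exons the widest gap lay above Tcf4, where the next gene was 24.4 times higher in KO (Bcl6) and 23.3 times higher in WT (Irf4). With the longest transcript as the length, the mean over 6 libraries was 2.76 RPKM for Tcf4 and 0.687 RPKM for Zeb2, and with the mean length of coding transcripts it was 12.6 and 2.50 RPKM. By the mean over 6 libraries, all 3 lengths placed Id2 and Irf8 first and Irf4, Tcf4 and Zeb2 last, but the order between them moved. With the mean coding length Id2 was 1.04 times Irf8 in KO and 1.03 times in WT, with overlapping library values, and Spi1 came next, above Batf3 and Nfil3. In KO alone that length put Irf4 at 1.02 times Bcl6, and again their values overlapped. The gap above Tcf4 was then 3.19 times in KO and 2.38 times in WT, and the widest gap was that of Tcf4 over Zeb2, at 4.69 times in KO and 5.43 times in WT.

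With merged exons, the 4 cDC1 factors made up 83.5 to 86.1% of the summed RPKM of the 10 genes in KO libraries and 82.6 to 86.5% in WT libraries. The 3 cDC2 or pDC factors made up 2.01 to 3.56% in KO and 1.38 to 2.57% in WT, nearly all of it Irf4. In each library the lowest cDC1 factor was Batf3 and the highest cDC2 or pDC factor was Irf4. Batf3 was 4.87, 4.0 and 2.43 times Irf4 in KO replicates 1, 2 and 3, against 3.61, 6.84 and 4.08 times in WT replicates 1, 2 and 3. The smallest multiple was that of KO replicate 3 and the largest that of WT replicate 2, and the groups overlapped.

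The comparison of KO with WT asks whether loss of Vps33b goes with a different set of lineage factors in cDC1s, and no member passed the test. In the quasi-likelihood test of edgeR over 12568 genes, 0 members reached a Benjamini-Hochberg adjusted p below 0.05, and neither did any other gene (0%). Neither DESeq2, which called 10 genes (0.0797%), nor limma-voom, which called 0, called a member. Before adjustment, 1 member had p below 0.05, Bcl6, against 725 of all genes (5.77%). For 1 member, Bcl6, all KO values lay on one side of all WT values, as for 1338 of all genes (10.6%), of which 686 (5.46%) were higher and 652 (5.19%) lower in KO. A count of 1 in 10 is near both backgrounds. The median log2 fold change was 0.09 over the members, with 7 above 0 and 3 below, and 0.00432 over all genes tested.

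All 3 KO values of Bcl6 lay below all 3 WT values. Its level was 148.1, 140.2 and 140.0 CPM in KO replicates 1, 2 and 3, against 189.9, 166.0 and 218.3 CPM in WT replicates 1, 2 and 3. The KO libraries lay close together, with a coefficient of variation of 3.25%, and the WT libraries were more spread, at 13.7%. The means were 142.7 ± 4.65 CPM in KO and 191.4 ± 26.2 CPM in WT, so that KO held 74.6% of the WT level. The log2 fold change was -0.42 ± 0.13 (SE), with a 95% interval of -0.72 to -0.13, an unadjusted p of 0.00846 and an edgeR adjusted p of 0.834 over all genes. DESeq2 gave an adjusted p of 0.451, and over 16 other settings the adjusted p ran from 0.26 to 1.0.

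Irf4 had the largest positive value of the 10, and its groups overlapped. It was at 103.9, 123.1 and 181.3 CPM in KO replicates 1, 2 and 3, against 120.4, 78.8 and 93.2 CPM in WT replicates 1, 2 and 3. KO replicate 3 was the highest of all and WT replicate 2 the lowest, while KO replicate 1 lay below WT replicate 1. The means were 136.1 ± 40.3 CPM in KO and 97.5 ± 21.1 CPM in WT, a log2 fold change of 0.47 ± 0.22 with a 95% interval of -0.02 to 0.97 (unadjusted p = 0.0569, edgeR adjusted p = 0.834). Without KO replicate 3 the log2 fold change was 0.21, with an unadjusted edgeR p of 0.289.

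The libraries with more Irf4 also had a higher sum of mature dendritic cell markers, but single markers differed in this. The 10 mature markers summed to 23600, 25600 and 29500 CPM in KO replicates 1, 2 and 3, against 23900, 21700 and 21700 CPM in WT replicates 1, 2 and 3. The order of the 4 libraries with the most Irf4 (KO replicates 3 and 2, WT replicate 1, KO replicate 1) was also their order by the sum of mature markers. Fscn1 was highest in KO replicate 3 (7495 CPM) and lowest in WT replicate 2 (4866 CPM), as Irf4 was. Ccr7 was highest in KO replicate 2 (5469 CPM), and was higher in WT replicate 2 (5272 CPM) than in WT replicate 1 (4488 CPM). KO replicate 3 was in addition the library with the most monocyte and macrophage transcript, at 678 CPM, against 166 and 179 CPM in the other KO libraries and 194 to 345 CPM in WT. The part of either in the Irf4 and Bcl6 values was not tested. B cell markers, which matter because B cells can express Bcl6, summed to 401, 140.0 and 117 CPM in KO replicates 1, 2 and 3, against 166, 295 and 195 CPM in WT replicates 1, 2 and 3. Most of that sum was Ighm, and the other 7 markers summed to 10.6, 29.6 and 30.8 CPM in KO replicates 1, 2 and 3, against 17.5, 40.0 and 15.7 CPM in WT replicates 1, 2 and 3. The part of these sums in the Bcl6 values was not tested. Fewer cells of a type and less RNA per cell cannot be told apart in such bulk libraries.

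**Figure D2:**
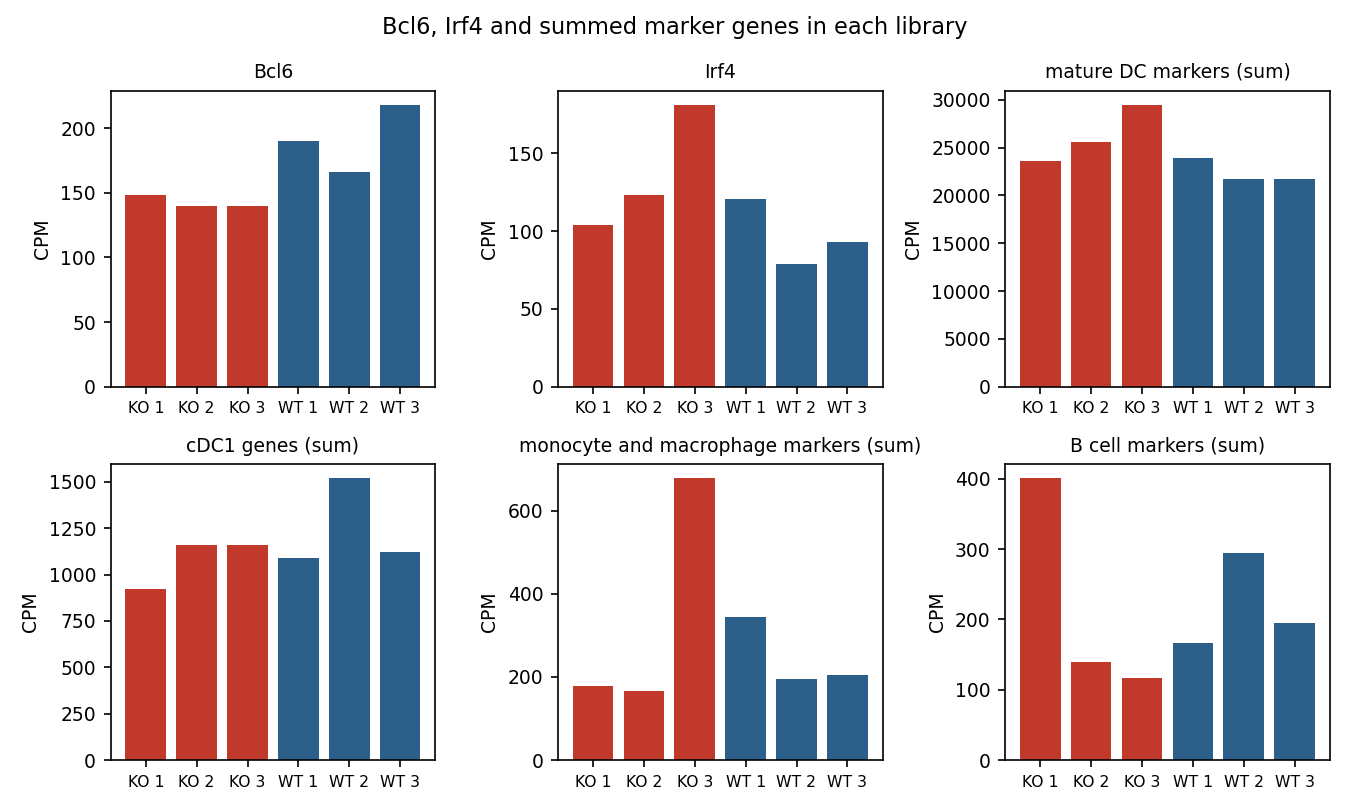
Bars give CPM in each library, KO in red and WT in blue, for Bcl6, Irf4 and the summed genes of 4 marker lists, each axis starting at 0. All 3 KO libraries are below all WT libraries for Bcl6 (140.0 to 148.1 CPM in KO, 166.0 to 218.3 CPM in WT), while KO replicate 3 is highest for Irf4, mature markers and monocyte markers.

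The 4 cDC1 factors had values near 0, with intervals that bound how large a difference could be. Irf8 was at 1244, 1631 and 1741 CPM in KO replicates 1, 2 and 3, against 1328, 1434 and 1481 CPM in WT replicates 1, 2 and 3. KO replicate 1 was the lowest of the 6 libraries and KO replicates 2 and 3 the highest, so the KO values enclosed the WT values. The log2 fold change was 0.12 ± 0.14, and the 95% interval ran from 0.876 to 1.35 times the WT level. Without KO replicate 1 it was 0.25 (edgeR adjusted p = 0.374), and without KO replicate 3 it was 0.02.

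Batf3 was at 164.8, 160.3 and 143.5 CPM in KO replicates 1, 2 and 3, against 141.7, 175.6 and 123.7 CPM in WT replicates 1, 2 and 3. Its log2 fold change was 0.09 ± 0.15, with an interval of 0.85 to 1.33 times WT. Id2 was at 1380.0, 1404 and 1113 CPM in KO, against 1104, 1485 and 980.3 CPM in WT, in replicate order. The highest and the lowest Id2 values were both WT, and the log2 fold change was 0.13 ± 0.17 (0.849 to 1.40 times WT). Nfil3 was at 214.5, 285.5 and 205.1 CPM in KO and 202.0, 304.3 and 223.7 CPM in WT, in replicate order. In each group replicate 2 was the highest, and the log2 fold change was -0.05 ± 0.18 (0.738 to 1.27 times WT). In the fit of all 6 libraries, a difference of 1.5 times in either direction lay outside the interval of each of these 4 factors. That bound is for this fit only. The log2 fold change of Id2 was 0.31 ± 0.14 without WT replicate 2, and that of Nfil3 was -0.23 ± 0.19 without KO replicate 2.

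Of the shared factors other than Bcl6, Zbtb46 was at 285.4, 247.5 and 272.6 CPM in KO and 304.6, 244.3 and 301.4 CPM in WT, in replicate order. Spi1 was at 233.9, 252.1 and 232.0 CPM in KO and 203.7, 259.9 and 216.6 CPM in WT. The groups overlapped for both, with log2 fold changes of -0.08 ± 0.13 for Zbtb46 and 0.08 ± 0.13 for Spi1. These intervals were among the narrowest of the 10, at 0.775 to 1.16 and 0.867 to 1.29 times WT.

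The low factors and Irf4 gave the widest intervals. Zeb2 was at 8.26, 5.61 and 6.53 CPM in KO and 5.77, 4.87 and 6.56 CPM in WT, in replicate order, and the groups overlapped. Its log2 fold change was 0.22 ± 0.31 (0.732 to 1.86 times WT). Tcf4 was at 22.3, 25.6 and 23.8 CPM in KO and 20.6, 20.6 and 29.0 CPM in WT, with a log2 fold change of 0.03 ± 0.20 (0.752 to 1.39 times WT). WT replicate 3 alone held more Tcf4 than every KO library. The Irf4 interval ran from 0.988 to 1.95 times WT. The Zeb2 and Irf4 intervals both include a level 1.5 times that of WT, so these libraries do not exclude a difference of that size for either.

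**Figure D3:**
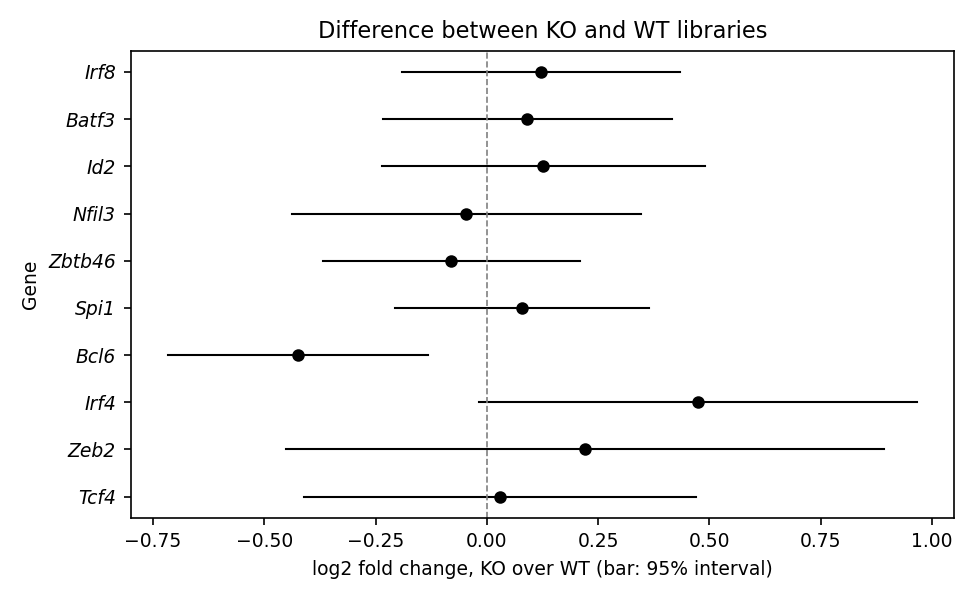
Points give the log2 fold change of each factor, KO over WT, and bars its 95% interval from the edgeR fit (3 libraries a group), with a dashed line at 0. The Bcl6 interval of -0.72 to -0.13 is the one that does not cross 0, before adjustment over all genes.

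The members varied among libraries within a group as well as between groups. Within WT, replicate 2 was the highest library for Batf3, Id2, Nfil3 and Spi1 and the lowest for Zbtb46, Bcl6, Irf4 and Zeb2, 8 of the 10 members. That library also had the highest sum of cDC1 genes, at 1520 CPM against 1090 and 1120 CPM in the other WT libraries. WT replicate 1 was the highest for 2 members and the lowest for 4, and WT replicate 3 the highest for 4 and the lowest for 2. On the same count of highest and lowest values together, KO replicates 1 and 3 were extreme for 7 members each and KO replicate 2 for 6. In a group of 3 libraries each member has 1 highest and 1 lowest, so every library is extreme for many members. The median coefficient of variation of the members was 9.8% in KO and 16.4% in WT, against 18.8% in KO and 17% in WT over all genes tested with counts in both groups. Those genes were not matched to the members by level, and most members lie well above the median coding gene. The values therefore cannot show whether the members vary less than other genes of like level.

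Ratios of opposed factors within a library take out anything that scales all genes alike, and 5 pairs were compared. Irf8 was 8.32, 9.2 and 6.67 times Irf4 per length in KO replicates 1, 2 and 3, against 7.66, 12.6 and 11 times in WT replicates 1, 2 and 3. The KO ratio was lower by 0.36 on the log2 scale (mean 3.00 ± 0.24 in KO, 3.35 ± 0.37 in WT), and the groups overlapped through WT replicate 1. An exact two-sided permutation test over the libraries gave p = 0.3, and 0.8 after Benjamini-Hochberg adjustment over the 5 pairs. With 3 libraries against 3 that test cannot go below 0.1, so it can call no pair.

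Id2 was 694, 614 and 524 times Tcf4 in KO and 603, 807 and 380.0 times in WT, in replicate order. Nfil3 was 255, 499 and 307 times Zeb2 in KO and 343, 611 and 334 times in WT. The size of these multiples depends on the long merged exons of Tcf4 and Zeb2. With the mean coding length Id2 was 62.9 to 83.2 times Tcf4 in KO and 45.6 to 96.9 times in WT, and Nfil3 was 32.2 to 63.0 times Zeb2 in KO and 42.2 to 77.4 times in WT, while differences between groups do not depend on length. The WT libraries alone spanned more than the distance between the group means for both ratios. KO minus WT differences were 0.09 for Id2 over Tcf4, -0.28 for Nfil3 over Zeb2, -0.10 for Id2 over Zeb2 and -0.36 for Batf3 over Irf4 on the log2 scale, and the groups overlapped in each (exact permutation p = 0.8, 0.5, 0.7 and 0.5). The adjusted p was 0.8 for all 5 pairs.

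**Figure D4:**
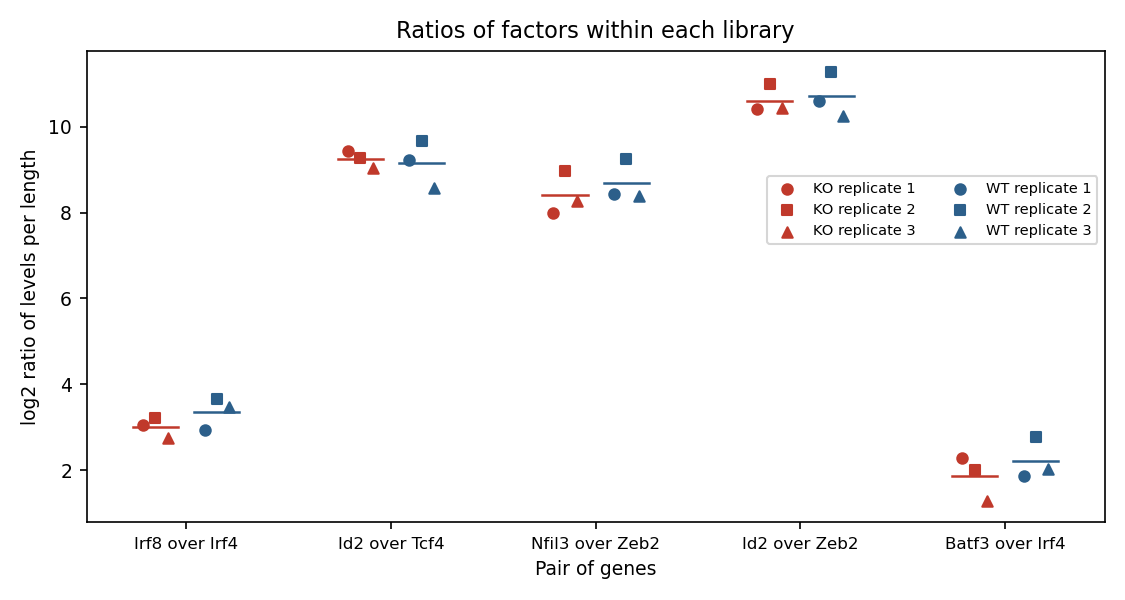
Each point is the log2 ratio of 2 factors per length in 1 library, KO in red and WT in blue, with a line at each group's mean. The groups overlap for all 5 pairs, and WT replicate 2 has the highest ratio of its group in each pair.

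The wider network of dendritic cell factors gave no call either. Lists of 7 kinds held 49 other transcription factors, of which 48 were tested, 24 above 0 and 24 below, with a median log2 fold change of 0.00101 and 0 passed. Before adjustment, 1 had p below 0.05 and was higher and 1 was lower. Among 14 other factors of conventional dendritic cells, these were Mycl and Gfi1. Mycl, which supports the fitness of mouse cDC1s, was at 15.6 ± 2.30 CPM in KO and 22.4 ± 1.64 CPM in WT (log2 fold change -0.54 ± 0.20, edgeR adjusted p = 0.834). Gfi1, a repressor of myeloid and lymphoid precursors, was at 1.84 ± 0.554 CPM in KO and 0.629 ± 0.272 CPM in WT (1.57 ± 0.64, adjusted p = 0.834), a value that rests on few reads.

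Of 7 other cDC2 factors 6 lay below 0, with a median log2 fold change of -0.23, and the smallest p-values were those of Prdm1 (-0.47 ± 0.26), which encodes the repressor BLIMP-1, and of the receptor gene Notch2 (-0.42 ± 0.27). Of 6 other pDC factors 3 lay above 0, and Cbfa2t3, an E protein cofactor (0.06 ± 0.12), and Spib, an ETS factor (0.07 ± 0.14), had the smallest p-values. Spib was abundant in these cells, at 75.6 RPKM in KO and 72.3 RPKM in WT, and Cbfa2t3 was at 57.4 RPKM in KO and 55.0 RPKM in WT, so these genes of the pDC list stood well above Tcf4. Among other E and ID proteins, Id1, an inhibitor like ID2, was at 1.66 RPKM in KO and 2.54 RPKM in WT (-0.63 ± 0.45), and the E protein gene Tcf12 at 3.14 RPKM in KO and 3.63 RPKM in WT (-0.20 ± 0.15).

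Among the other IRF genes, 5 of 7 lay above 0, with Irf9 of interferon signalling at 0.20 ± 0.18 and Irf2, a repressor of interferon responses, at -0.14 ± 0.16. Of the 3 AP-1 partners of BATF3 1 lay above 0, with Junb at 1123 ± 130 CPM in KO and 1281 ± 190 CPM in WT (-0.19 ± 0.14) and Jun at 441.6 ± 227 CPM in KO and 508.6 ± 132 CPM in WT (-0.21 ± 0.40). Of 9 tested factors of other lineages 4 lay above 0, and the smallest p-values were those of Foxp3 of regulatory T cells (1.03 ± 0.54), whose exons overlap other genes (18.6% with Flicr), and Tcf7 (-0.23 ± 0.15). None of these passed, and their adjusted p-values were all 0.834 or more in the edgeR test.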

How the data were processed

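For the 6 libraries the authors deposited unnormalized counts per Ensembl gene. Per the submitters' processing notes, HISAT2 2.0.5, HTSeq and mm10 were used, with no annotation release or strand setting stated. Columns were matched to samples by the library label in each description. Symbols, positions and lengths came from GENCODE M21 (mm10), which named 32235 of 32285 genes, and where a symbol had several features the one with the most counts was used.

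Genes were kept by filterByExpr (12568) and TMM-scaled. The test was that of edgeR 4.0.16 (robust glmQLFit by its current method, glmQLFTest) in R 4.3.3, KO over WT with no covariate, at a Benjamini-Hochberg adjusted p under 0.05. The SE was the log2 fold change divided by the square root of F. The interval used the total degrees of freedom. Ratios used counts plus 0.5 and exact permutation tests in scipy 1.17.1. The script was tested on simulated counts. The 10 members and all lists were chosen with earlier results of these data known. Beyond the members, the 2 genes with the smallest p in each list of factors were named, and Tcf7, Pax5, Bcl11b, Tbx21 and Cebpe were named for their levels after these were seen. Alternatives were 2 other scalings, 2 other filters, DESeq2 1.42.0, limma-voom (limma 3.58.1), no robust estimation, removal of immune receptor and haemoglobin genes, a replicate block, each library left out, other gene lengths and a pseudocount of 2. The older quasi-likelihood method was added after the data were seen.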

Additional observations from a re-analysis of the deposited data

How the results depend on the processing

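No member passed an adjusted p under 0.05 in any of the 16 other fits, and 153 of 160 values of the members kept their direction. The 7 that did not came from leaving out 1 library, where the log2 fold change ran from -0.23 to 0.14 for Nfil3, from -0.059 to 0.22 for Tcf4 and from -0.020 to 0.23 for Batf3. Bcl6 ran from -0.52 to -0.32 and Irf4 from 0.21 to 0.66 when 1 library was left out. Over all genes, 3 passed without a filter, 10 with DESeq2 and 0 to 7 when 1 library was left out. The 725 genes at an unadjusted p under 0.05 became 1621, 376 and 444 when KO replicate 1, 2 or 3 was left out. With a replicate block 0 genes passed, Bcl6 was at -0.41 and Irf4 at 0.47, and 942 genes had an unadjusted edgeR p under 0.05. Over all genes, same-numbered libraries did not deviate together (r of 0.0052, 0.028 and -0.0013). Such values cannot show whether libraries of 1 number shared a day or a preparation, and the labels do not say. The lowest cDC1 factor stood 3.33 to 4.82 times above Irf4 under all lengths tried. A pseudocount of 2 counts kept the direction of all 5 ratios, but leaving out 1 library turned 3 of them, with log2 differences from -0.20 to 0.34 for Id2 over Tcf4, -0.33 to 0.19 for Id2 over Zeb2 and -0.56 to 0.0032 for Nfil3 over Zeb2. Zeb2, at 72 to 124 reads, is the member whose precision depth limits most.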
